A study of Mus musculus with 30 samples.

Results

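Rhno1, Clec2h, Clec2j and BC064078 are 4 genes that lie on mouse chromosome 6, 3.01 to 3.64 Mb from Tnfrsf1a, the gene of the TNF receptor TNFR1. They were chosen from 55487 genes because their level in the colon followed the mouse line, so the levels below are described without a test. All 4 were among the 15458 genes kept by a filter on low counts. BC064078 and Clec2j passed that filter only through the genotypes in which they were high. The choice set a distance limit of 20 Mb from Tnfrsf1a and no limit on level, so no gene stood just inside or just outside a level threshold.

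RNA from the colon of 30 mice was sequenced as 3′ tags, 1 library per mouse, with 5 mice in each of 6 genotypes. XBP1IEC-KO mice (here the Xbp1 knockout) lacked XBP1, a transcription factor of the secretory pathway, and Casp8IEC-KO mice (the Casp8 knockout) lacked caspase-8, a protease that starts apoptosis and restrains necroptosis, each in intestinal epithelial cells (IEC) by label. XBP1IEC-KO;Casp8IEC-KO mice (the double mutant) lacked both. XBP1IEC-KO;Casp8IEC-KO;TNFR1IEC-KO mice (the TNFR1 triple mutant) also lacked epithelial TNFR1, and XBP1IEC-KO;Casp8IEC-KO;MLKLKO mice (the MLKL triple mutant) lacked MLKL, the executioner of necroptosis, with no cell type named. The controls were labelled WT. The sources used here give no Cre line, strain background, breeding scheme or age, so which mice were littermates is unknown.

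Library totals ran from 3516792.6 to 5823059.7 reads, and 1 read was worth about 0.232 CPM, the number of reads scaled to library size. The labelled tissue was borne out by its markers: all 18 epithelial markers of a list were tested, with Epcam at 874 to 1550 CPM. Sex, called from the expression of sex-linked genes, was uneven: females numbered 3 of 5 among Xbp1 knockouts, 3 among Casp8 knockouts, 1 among double mutants, 4 among TNFR1 triple mutants, 5 among MLKL triple mutants and 1 among WT. Tnfrsf1a fell in the TNFR1 triple mutant against the double mutant (log2 fold change −0.68 ± 0.130 SE, adjusted p = 0.00557, edgeR quasi-likelihood test). Casp8 was at 21.01 CPM in replicate 2 of the Xbp1 knockout, against 44.8 to 66.5 CPM in its other mice, and Mlkl was at 10.6 CPM in replicate 5 of the MLKL triple mutant, against 1.29 to 4.36 CPM in its other mice. In bulk tissue fewer cells of a type and less RNA per cell cannot be told apart.

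The region holds the natural killer (NK) gene complex, a cluster of genes for C-type lectin-like proteins. Within it the Clec2 genes encode surface ligands, and the interleaved Klrb1 genes encode the NKR-P1 receptors of NK and T cells that bind them. Clec2h encodes Clr-f, a ligand known from the gut epithelium of the mouse. Clec2j is annotated as an unprocessed pseudogene and BC064078 as a transcribed unprocessed pseudogene, both related to Clec2 genes. Rhno1 is unrelated to the lectins: its protein, known mainly from human cells, binds the RAD9-RAD1-HUS1 clamp and helps to activate the ATR kinase when DNA is damaged. Genes that lie close together are inherited together, so a line bred from a different strain, or carrying a targeted allele, can differ from its controls in a stretch of chromosome around that locus.

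On genome build GRCm38, Tnfrsf1a spans chr6:125349362-125362484 on the plus strand. Rhno1 (ENSMUSG00000048668) spans chr6:128357000-128362911 on the minus strand, and Clec2j (ENSMUSG00000030363) spans chr6:128652416-128661820, also on the minus strand. Clec2h (ENSMUSG00000030364) spans chr6:128662385-128677374 and BC064078 (ENSMUSG00000087150) chr6:128992952-129008040, both on the plus strand. The starts of Clec2j and Clec2h are 0.565 kb apart and point away from each other. Rhno1 and Foxm1, a cell cycle transcription factor, form a second such pair, with starts 0.056 kb apart.

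The relatedness of the 3 lectin genes bears on how their reads can be assigned, and a stretch of 83 bases illustrates the relatedness. The stretch was not chosen from the 3′ ends, which the tags sample. It was read from the GENCODE M21 transcripts, at bases 68 to 150 of BC064078-201, bases 229 to 311 of Clec2j-201 and bases 376 to 458 of Clec2h-201, where it lies inside the coding sequence. Capitals mark the 47 bases that are the same in all 3.
BC064078: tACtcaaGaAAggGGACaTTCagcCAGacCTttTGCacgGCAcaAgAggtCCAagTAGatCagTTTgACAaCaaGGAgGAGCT
Clec2j: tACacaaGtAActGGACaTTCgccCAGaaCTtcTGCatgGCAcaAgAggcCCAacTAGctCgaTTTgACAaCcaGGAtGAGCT
Clec2h: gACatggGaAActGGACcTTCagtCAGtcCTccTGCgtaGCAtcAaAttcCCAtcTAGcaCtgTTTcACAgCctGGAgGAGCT
BC064078 and Clec2j shared 67 of the 83 bases, BC064078 and Clec2h 53, and Clec2j and Clec2h 56. Over the best local alignment of whole transcripts, BC064078-201 was 83.6% identical to Clec2j-201 over 280 bases, and Clec2j-201 was 82.4% identical to Clec2h-201 over 500 bases. Another transcript, Clec2j-202, was closer to other Clec2 genes, at 94.2% to Clec2d-201 over 414 bases and 94.2% to Clec2g-201 over 412 bases. Runs shared letter for letter were sought among transcripts of these 3 genes, Clec2d, Clec2e, Clec2f, Clec2g and Clec2i. The longest shared with another gene was 103 bases for Clec2h-201 (with Clec2i-201), 56 for Clec2j-201 (with Clec2g-201) and 42 for BC064078-201 (with Clec2f-201). A read that lies wholly inside such a run cannot be placed uniquely. Read length is not given here, and whether the runs lie at the 3′ ends was not examined. How far the split of reads within the family is affected is therefore unknown.

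The promoter window of Clec2h is shown beside that of Clec2e because the windows are near copies of each other while the levels of the genes are far apart. Both are from RefSeq (build GRCm38.p6), at chr6:128662135-128662434 on the plus strand for Clec2h and at chr6:129100854-129101153 on the minus strand for Clec2e. Capitals mark TATAA, which is the core of the box that positions transcription starts, and a match to TTTATNG, the type of site bound by CDX factors of the gut epithelium.
Clec2h: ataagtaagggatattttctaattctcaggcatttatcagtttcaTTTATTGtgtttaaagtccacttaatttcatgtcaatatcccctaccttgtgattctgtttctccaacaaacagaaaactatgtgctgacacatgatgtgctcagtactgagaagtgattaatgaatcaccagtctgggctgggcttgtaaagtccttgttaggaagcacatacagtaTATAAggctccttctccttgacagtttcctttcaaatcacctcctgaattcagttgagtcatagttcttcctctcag
Clec2e: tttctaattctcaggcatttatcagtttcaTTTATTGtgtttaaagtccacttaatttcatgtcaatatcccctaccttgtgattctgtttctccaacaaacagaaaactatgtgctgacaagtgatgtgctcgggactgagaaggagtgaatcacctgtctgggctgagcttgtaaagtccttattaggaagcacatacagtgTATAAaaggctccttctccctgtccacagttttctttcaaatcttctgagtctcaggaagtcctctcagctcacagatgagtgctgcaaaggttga
The best local alignment of the windows held 231 same bases of 242 (95.5%). Clec2h was at 93.4 to 351 CPM over the 30 mice, whereas Clec2e was at 0 to 3.10 CPM and was at 0 in 5 libraries. Both windows also held GATAA on the minus strand (a GATA type site), and neither held TTCNNNGAA (a gamma-activated site type). Searched on both strands of 32851 RefSeq windows of 300 bases, TATAA was in 24.9%, TTTATNG in 10.9%, GATAA in 25.4% and TTCNNNGAA in 8.30%. The matches shown do not overlap each other, and a match is a description of the letters, not evidence of binding.

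Clec2h was the most abundant of the 4 and was higher in the genotypes that lacked Casp8 but not TNFR1. It was at 276, 231, 241, 282 and 267 CPM in the Casp8 knockout. It was at 329, 289, 281, 263 and 227 CPM in the double mutant. In the MLKL triple mutant it was at 351, 245, 298, 282 and 232 CPM. Every one of these 15 mice was above all 5 WT mice. The Xbp1 knockout spread widest, with 326, 202, 170, 206 and 93.4 CPM, so that replicate 1 sat among these 15 mice and replicate 5 lay below WT. The TNFR1 triple mutant held 122, 97.5, 143, 127 and 161 CPM, inside the range of WT, which held 167, 96.5, 162, 192 and 124 CPM. In the fit, against WT it was 1.75-fold higher in the Casp8 knockout, 1.87-fold higher in the double mutant and 1.90-fold higher in the MLKL triple mutant. Against the double mutant it was 2.13-fold lower in the TNFR1 triple mutant.

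Clec2j, whose start lies next to that of Clec2h, ran the other way and at levels near the limit of detection. It had 4, 2, 0, 2 and 2 reads in the Casp8 knockout, 0, 3, 0, 1 and 3 in the double mutant and 5, 5, 4, 0 and 0 in the MLKL triple mutant. The Xbp1 knockout had 1 read in replicate 1 and 13, 11, 12 and 17 reads in the others. Clec2j had 16, 12, 24, 21 and 8 reads in the TNFR1 triple mutant and 20, 15, 7, 14 and 11 reads in WT. No mouse of the 3 low genotypes was above 5 reads, and none of the TNFR1 triple mutant or WT was below 7. In CPM the means were 2.44 ± 1.36 in the Xbp1 knockout, 0.543 ± 0.407 in the Casp8 knockout and 0.338 ± 0.366 in the double mutant. They were 3.59 ± 1.34 in the TNFR1 triple mutant, 0.648 ± 0.606 in the MLKL triple mutant and 3.12 ± 1.02 in WT (SD, n = 5 each). Counts this low cannot rank the 3 low genotypes among themselves.

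BC064078 had the widest contrast. It was at 0.860, 0, 0.945, 0.507 and 0.273 CPM in the Casp8 knockout. It was at 0.489, 0.255, 0.198, 1.23 and 1.13 CPM in the double mutant, and at 0.259, 1.37, 0.484, 0.224 and 0.967 CPM in the MLKL triple mutant. These 15 libraries held 0 to 7 reads each. The TNFR1 triple mutant held 16.5, 14.7, 23.4, 20.1 and 9.47 CPM, and WT held 5.698, 13.2, 9.16, 9.75 and 15.8 CPM. The Xbp1 knockout spanned both levels, with 0.728 CPM (3 reads) in replicate 1, below every WT mouse, and 6.70, 10.7, 10.3 and 26.6 CPM in the others. In the fit, against WT BC064078 was 19.5-fold lower in the Casp8 knockout, 15.99-fold lower in the double mutant and 14.97-fold lower in the MLKL triple mutant. Against the double mutant it was 25.2-fold higher in the TNFR1 triple mutant, a log2 fold change of 4.66. On that scale the difference between the MLKL triple mutant and the double mutant changed sign between alternatives, from −0.38 to 0.41, so those genotypes cannot be ordered.

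**Figure D1:**
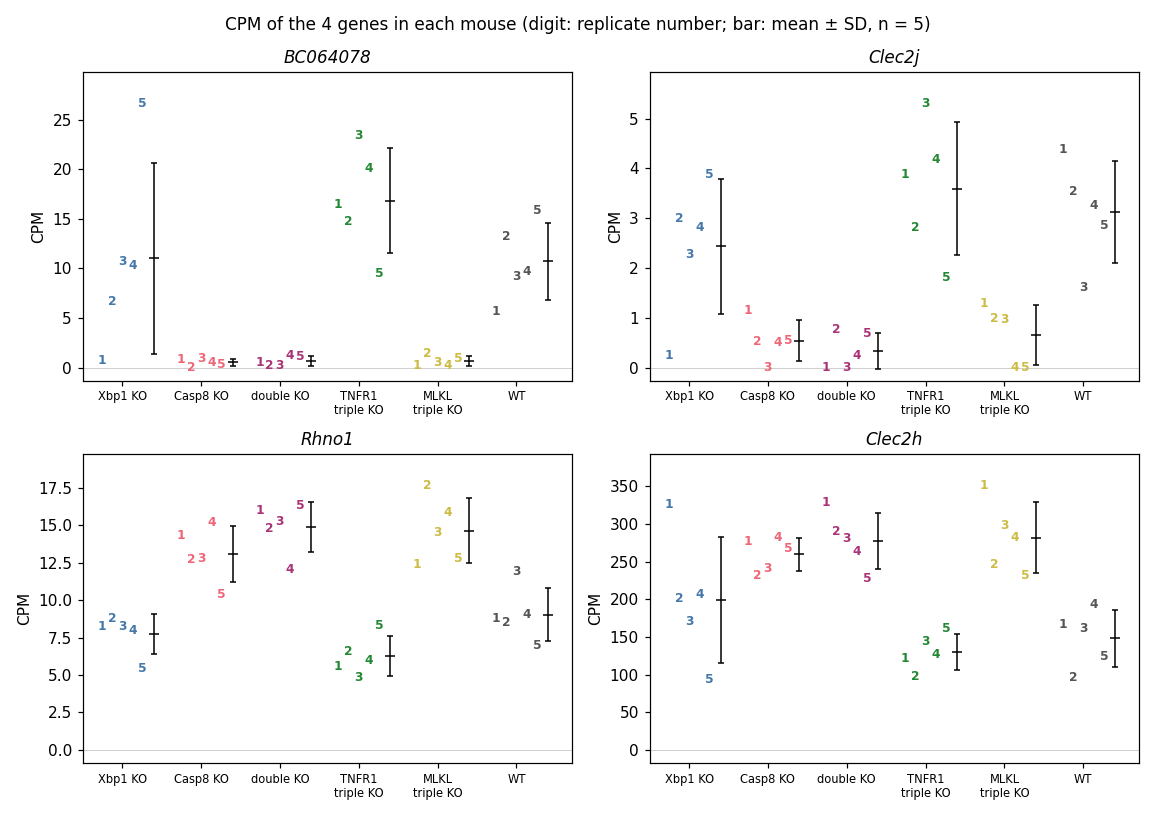
CPM (vertical axis) of BC064078, Clec2j, Rhno1 and Clec2h in every mouse of the 6 genotypes, each digit being a replicate number and each bar the mean ± SD of 5 mice. The Casp8, double and MLKL triple mutants sit low for BC064078 and Clec2j and high for Clec2h and Rhno1, while replicate 1 of the Xbp1 knockout leaves its group for 3 of the 4 genes.

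Rhno1, the checkpoint gene, moved like Clec2h over a narrower range. It was at 14.3, 12.7, 12.8, 15.2 and 10.4 CPM in the Casp8 knockout, at 15.96, 14.8, 15.3, 12.1 and 16.3 CPM in the double mutant and at 12.4, 17.6, 14.5, 15.9 and 12.8 CPM in the MLKL triple mutant. The Xbp1 knockout held 8.25, 8.77, 8.25, 7.97 and 5.47 CPM. Rhno1 was at 5.57, 6.54, 4.86, 5.98 and 8.34 CPM in TNFR1 triple mutants and at 8.77, 8.50, 11.9, 9.05 and 7.00 CPM in WT. Here replicate 1 of the Xbp1 knockout was level with its group, unlike for the 3 lectin genes. In the fit Rhno1 was 1.64-fold higher in the double mutant than in WT and 2.38-fold lower in the TNFR1 triple mutant than in the double mutant. Rhno1 overlaps the antisense gene Gm26770 (chr6:128356004-128358837), and its value was not a whole number in 17 libraries, as reads divided between genes would give. Gm26770 followed it closely, with means of 4.89 ± 1.25 CPM in the TNFR1 triple mutant and 12.7 ± 2.05 CPM in the double mutant (SD, n = 5 each). The strand setting of the counting is not given, so the pair cannot be told apart. Foxm1, which shares the start region of Rhno1, averaged 6.52 ± 0.583 CPM in the TNFR1 triple mutant, 7.48 ± 2.28 CPM in the double mutant and 9.12 ± 3.41 CPM in WT, and passed the test in neither of the TNFR1 triple mutant's comparisons with them (adjusted p = 0.727 and 0.286, edgeR quasi-likelihood test).

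Ordered by mean, BC064078 ran from the TNFR1 triple mutant (16.8 ± 5.32 CPM) through the Xbp1 knockout (11.02 ± 9.61) and WT (10.7 ± 3.90) to the double mutant, the MLKL triple mutant and the Casp8 knockout (0.662 ± 0.489, 0.661 ± 0.496 and 0.517 ± 0.396). Clec2h ran from the MLKL triple mutant (282 ± 47.0 CPM), the double mutant (278 ± 37.3) and the Casp8 knockout (260 ± 22.2) through the Xbp1 knockout (199 ± 83.7) and WT (148 ± 37.8) to the TNFR1 triple mutant (130 ± 23.8). Clec2j was ordered as TNFR1 triple, WT, Xbp1, MLKL triple, Casp8 and double mutant, and Rhno1 as double, MLKL triple, Casp8, WT, Xbp1 and TNFR1 triple mutant. Genotypes next to each other in these orders had overlapping ranges, with 1 exception: for BC064078 the double mutant lay below WT without overlap, and replicate 1 of the Xbp1 knockout bridged the gap. No genotype stood apart from the other 25 mice for any of the 4 genes, since the low or high level was shared by 3 genotypes. Of all tested genes 0.0% stood apart in this way in the Xbp1 knockout, 0.453% in the Casp8 knockout, 0.213% in the double mutant, 0.00647% in the TNFR1 triple mutant, 0.0194% in the MLKL triple mutant and 0.149% in WT.

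The ranges of all 4 genes did not overlap between the TNFR1 triple mutant and the double mutant, where 2.26% of all tested genes had ranges that did not overlap, nor between the TNFR1 and the MLKL triple mutant, where the share was 1.63%. All 4 were also separated between the double mutant and WT (13.2% of all genes) and between the MLKL triple mutant and WT (4.46%). Clec2h, Clec2j and BC064078 were separated between the Casp8 knockout and WT (5.3%). None was separated between the Xbp1 knockout and WT (4.44%) or between the TNFR1 triple mutant and WT (4.78%), none between the MLKL triple mutant and the double mutant (5.05%) or between the double mutant and the Casp8 knockout (8.68%), and Rhno1 alone was separated between the double mutant and the Xbp1 knockout (6.17%). The genes were chosen for these levels, so the counts describe the choice and are no result beside the shares. The genes were grouped as passengers of the Tnfrsf1a locus, and whether the flanking genome sets their levels was not tested. By label only the TNFR1 triple mutant carries the Tnfr1 allele. Its range overlapped that of WT for each of the 4, which with 5 mice each does not show equal levels. The Casp8 allele is carried by the Casp8 knockout, the double mutant and both triple mutants. Which parental strain or sub-line each chromosome 6 came from was not tested, since no genotypes at this region are given.

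Genes around the 4 were then examined. They lie in the window from which the 4 were chosen and were open to that choice. Their counts are therefore not independent of it. Gm26770, which overlaps Rhno1 and cannot be told apart from it, is among the genes that passed in the TNFR1 triple mutant against the double and against the MLKL triple mutant. Of 269 tested genes that start within 20 Mb of Tnfrsf1a on either side, 265 were not among the 4. The side towards the telomere, which holds the 4, had 100 of them and the side towards the centromere 164, and the remaining one was Tnfrsf1a. The split into sides was made after the data had been seen. In the TNFR1 triple mutant against the MLKL triple mutant 0.259% of all tested genes passed (edgeR, adjusted p under 0.05; 0.168% lower), and 6 of 100 did on the telomere side, all 6 lower, against 0 of 164 on the centromere side, where 18 had an unadjusted p under 0.05 and limma voom called 1 and DESeq2 0. Beyond 20 Mb towards the telomere 2 of 33 genes passed in this comparison, both lower. In the TNFR1 triple mutant against the double mutant 2.35% of all genes passed, 1.33% lower. There 18 of 100 passed on the telomere side, all 18 lower, and 2 of 164 on the centromere side. Beyond 20 Mb towards the telomere 6 of 33 genes passed in that comparison, 2 higher and 4 lower. Windows of the same width at the other targeted genes held 0 of 227 genes at Casp8, 0 of 136 at Xbp1 and 2 of 320 at Mlkl in the comparison of the triple mutants (edgeR). At Casp8 17 and at Xbp1 6 genes had an unadjusted p under 0.05 there, and neither DESeq2 nor limma voom called any of them. The Casp8 window held more in other comparisons, with 8 of 227 genes (3.52%), 7 higher, in the TNFR1 triple mutant against the double mutant. Against WT it held 5 of 227 in the Casp8 knockout (2.20%, against 1.17% of all genes). It held 11 of 227 in the TNFR1 triple mutant (4.85%, against 2.12%) and 8 of 227 in the MLKL triple mutant (3.52%, against 0.854%).

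Genes of the telomere side were also compared with WT. In the Casp8 knockout 1.17% of all genes passed, 0.634% higher, and 7 of 100 did on the telomere side (6 higher) against 2 of 164 on the centromere side. In the MLKL triple mutant 0.854% passed, 0.343% higher, with 5 of 100 on the telomere side, all 5 higher, and 2 of 164 on the centromere side. None of these telomere-side genes lay in the first 5 Mb, the stretch that holds the 4 genes: 0 of 34 genes passed there in the Casp8 knockout and 0 of 34 in the MLKL triple mutant (edgeR), with 11 and 7 at an unadjusted p under 0.05, 1 and 2 called by DESeq2 and 2 in each called by limma voom. In the double mutant 21.3% passed, with 30 of 100 and 43 of 164, so many genes passed on both sides. For the TNFR1 triple mutant 2.12% passed, with 0 of 100 on the telomere side, 6 of 164 on the centromere side and 4 of 33, all lower, beyond 20 Mb towards the telomere. On the telomere side 21 genes had an unadjusted p under 0.05 in that comparison, and DESeq2 called 1 and limma voom 4 of the 100. In the Xbp1 knockout 0.0841% passed and 0 of 265 window genes, with 44 at an unadjusted p under 0.05, 1 called by DESeq2 and 11 by limma voom. Comparisons that share WT or double mutant mice are not independent of each other.

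Gucy2c, the guanylyl cyclase C receptor for guanylin, lies 11.4 Mb from Tnfrsf1a. It was at 38.8, 40.2, 61.2, 48.2 and 69.4 CPM in TNFR1 triple mutants and at 91.8, 87.4, 121, 99.1 and 81.0 CPM in the MLKL triple mutant, so the ranges did not overlap. It fell by 0.90 ± 0.188 on the log2 scale in the TNFR1 triple mutant against the MLKL triple mutant (adjusted p = 0.0220) and by 0.76 ± 0.188 against the double mutant (adjusted p = 0.0289). Against WT it rose by 1.08 ± 0.190 in Casp8 knockout mice (adjusted p = 0.00293) and by 1.04 ± 0.189 in MLKL triple mutants (adjusted p = 0.00871, all by edgeR). Smim10l1, 7.76 Mb from Tnfrsf1a, rose in the Casp8 knockout against WT (0.95 ± 0.220, adjusted p = 0.0230, edgeR) and fell in the TNFR1 triple mutant against the double mutant (−0.83 ± 0.220, adjusted p = 0.0404, edgeR). Gprc5a, a retinoic acid-induced orphan receptor 9.72 Mb away, had the largest changes of these, 2.10 ± 0.487 in the Casp8 knockout against WT and −2.39 ± 0.488 in the TNFR1 triple mutant against the double mutant (adjusted p = 0.0235 and 0.00992, edgeR). Cracr2a, a calcium sensor of store-operated calcium entry 2.21 Mb away, was at 0.727, 0.935, 2.65, 1.99 and 10.4 CPM in TNFR1 triple mutants and at 17.1, 13.7, 17.7, 15.9 and 10.15 CPM in the MLKL triple mutant. It fell by 2.14 ± 0.464 on the log2 scale (adjusted p = 0.0314, edgeR).

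The nearest tested neighbours did not all move. Gm26770 overlaps Rhno1 and cannot be told apart from it, so its values may restate the choice of Rhno1 and are given without p. In the TNFR1 triple mutant its log2 fold change was −1.38 ± 0.187 against the double mutant and −1.38 ± 0.188 against the MLKL triple mutant. Fkbp4, a co-chaperone of HSP90 between Rhno1 and Clec2j, fell in the TNFR1 triple mutant against the MLKL triple mutant (−0.56 ± 0.123, adjusted p = 0.0385, edgeR) but not past the threshold against the double mutant (−0.36 ± 0.123, adjusted p = 0.110). Nrip2, 0.0364 Mb from Rhno1, fell against the double mutant (−1.91 ± 0.491, adjusted p = 0.0347, edgeR) on 13 reads in all 5 TNFR1 triple mutant mice. Itfg2, which lies between Nrip2 and Fkbp4, had log2 fold changes of −0.07 ± 0.161 against the double mutant and −0.31 ± 0.161 against the MLKL triple mutant, and Tulp3, next to Rhno1, had −0.57 ± 0.280 and −0.54 ± 0.283. None of these 4 values passed.

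Profiles over the 30 mice were compared by the root mean square distance between z-scored log2 CPM values, in which 0 means the same profile. The nearest to Clec2h were Smim10l1 (0.40), Gucy2c (0.41), Gprc5a (0.54) and Cracr2a (0.55), all on the telomere side, and nearest to its mirror image was BC064078 (0.46). Nearest to Rhno1 were Gm26770 (0.32) and Clec2h (0.65). Of the 50 genes nearest to Clec2h, 28 lay within 20 Mb of Tnfrsf1a (56%), and of the 50 nearest to the mirror image of BC064078, 25 did (50%), whereas that window holds 1.74% of the tested genes. The 25 include Clec2h, and the profiles hold the levels by which the 4 were chosen from this window. These shares thus partly restate the choice and are no separate result. Of the 50 genes nearest to BC064078 itself, 4 lay in the window (8%), Clec2j among them, where 1.74% of tested genes lie. The nearest was Clec2j (0.54), and the next was Zfp951 on chromosome 5 (0.75). The fourth, Crabp2 on chromosome 3, a carrier of retinoic acid, was at 0 CPM in all 5 Casp8 knockout mice and at 0 to 0.764 CPM in the double and 0 to 0.483 CPM in the MLKL triple mutant. It was at 5.92 to 10.9 CPM in the Xbp1 knockout, at 11.4, 10.3, 0, 20.1 and 21.6 CPM in the TNFR1 triple mutant and at 0, 0, 25.9, 12.995 and 8.81 CPM in WT, so it was at 0 in single mice of genotypes that held BC064078. These likenesses are descriptions over mice that share genotype and line.

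Mice of 1 genotype also differed among themselves along this region. In TNFR1 triple mutants Gprc5a was at 36.1, 19.9 and 21.9 CPM in replicates 1, 2 and 4 and at 98.3 and 134 CPM in replicates 3 and 5. In the Xbp1 knockout it was at 14.6 CPM in replicate 5 and at 63.1 to 130 CPM in the others. WT held 15.1 and 13.5 CPM in replicates 2 and 5 and 77.4, 85.8 and 84.5 CPM in the others. The lowest Casp8 knockout mouse was at 147 CPM, the lowest double mutant at 263 CPM and the lowest MLKL triple mutant at 117 CPM, all above the low mice of the other genotypes. Mgp, which encodes matrix Gla protein and was chosen for this description after its values had been seen, had the same low mice. It was at 8.48, 11.9 and 18.5 CPM in TNFR1 triple mutant replicates 1, 2 and 4, at 14.6 CPM in Xbp1 knockout replicate 5, and at 20.5 and 19.7 CPM in WT replicates 2 and 5, whose other mice held 110 to 123 CPM. Clec2h had its lowest Xbp1 knockout value in replicate 5 and its lowest WT values in replicates 2 and 5 (96.5 and 124 CPM). In the TNFR1 triple mutant too its lowest values were in replicates 1, 2 and 4, within a range of 97.5 to 161 CPM. Cracr2a set replicate 3 of the TNFR1 triple mutant (2.65 CPM) with the low mice, although Mgp was at 93.5 CPM there, so the genes did not divide the mice in 1 way along the chromosome. Xbp1 knockout replicate 5 and both low WT mice also held the highest BC064078 of their groups. The TNFR1 triple mutant differed: its highest BC064078 (23.4 CPM) was in replicate 3, which was not low for Gprc5a or Mgp.

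**Figure D2:**
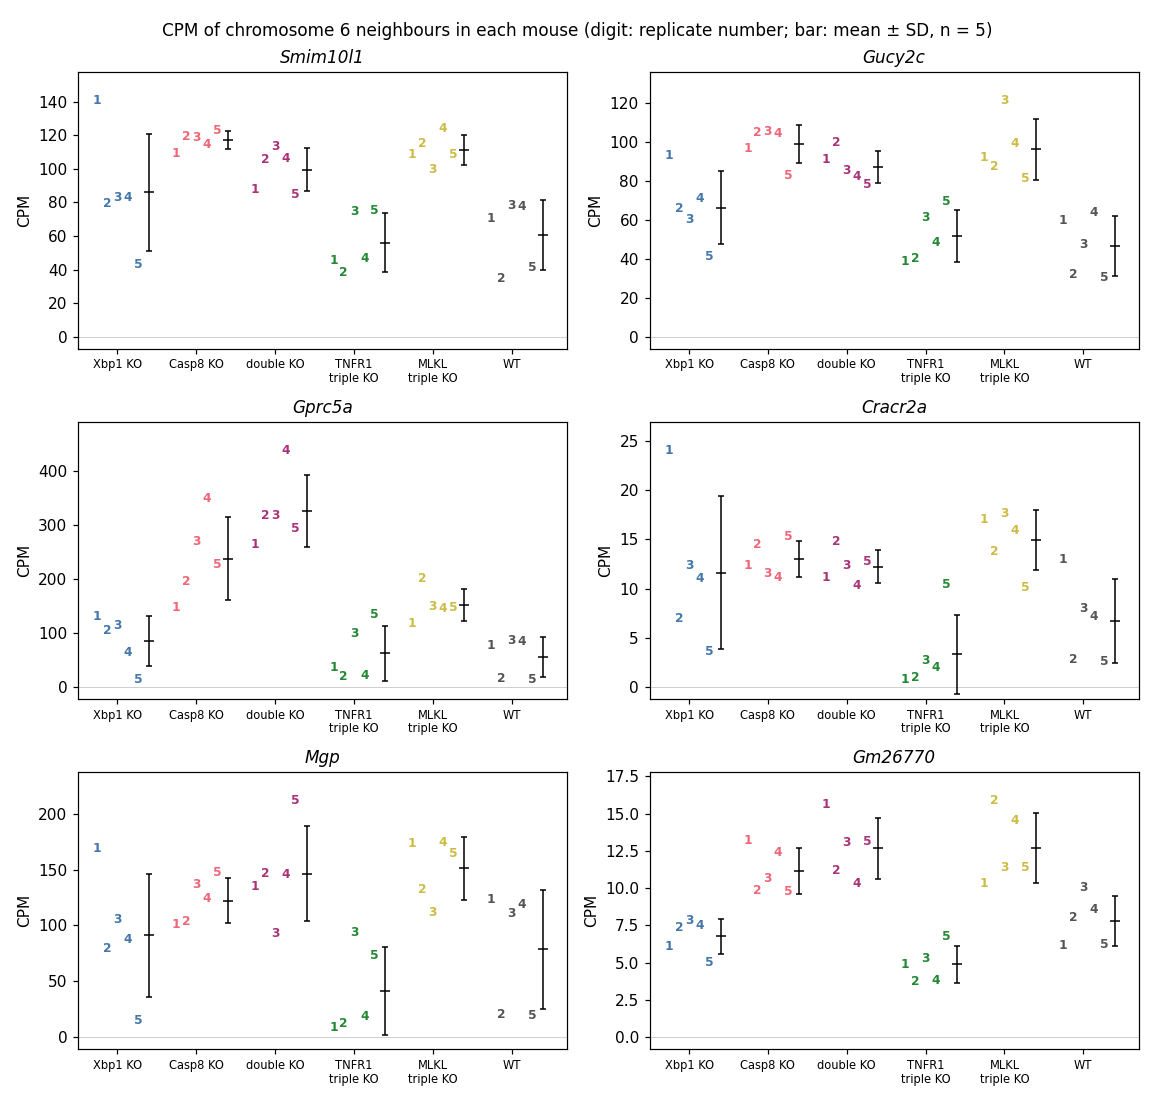
CPM (vertical axis) of Smim10l1, Gucy2c, Gprc5a, Cracr2a, Mgp and Gm26770 in every mouse, each digit being a replicate number and each bar the mean ± SD of 5 mice. TNFR1 triple mutant replicates 1, 2 and 4, Xbp1 knockout replicate 5 and WT replicates 2 and 5 lie low for Gprc5a and Mgp, below every mouse of the Casp8, double and MLKL triple mutants for those 2 genes.

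The spread of mice around their genotype means was then followed along the genome. It is not wholly independent of the choice of the 4 genes, since a level that follows the line is one with little spread within genotypes, so it is described without a test. Over 30 mice, 8 of the 100 telomere-side genes had a Pearson r with Clec2h of at least 0.6 in size (8%), all 8 positive. On the centromere side 2 of 164 did (1.22%), on the rest of chromosome 6 towards the centromere 0 of 522, and on other chromosomes 15 of 14634 (0.103%). The 8 were Smim10l1 (0.84), Gucy2c (0.82), Cracr2a (0.73), Mgp (0.73), Gprc5a (0.71), Dera (0.67), Mgst1 (0.64) and Grin2b (0.63). By position, 5 of 18 genes 10 to 15 Mb from Tnfrsf1a passed this size and 0 of 25 genes 15 to 20 Mb away. Without Xbp1 knockout replicate 1 it was 6 of 100 on the telomere side and 19 of 14634 on other chromosomes. For BC064078, 3 of 100 telomere-side genes reached −0.6 or beyond, and without Xbp1 knockout replicate 1 it was 0 of 100, so that relation rested on 1 mouse. For Rhno1 and Clec2j it was 1 of 100 each. The points share libraries and dispersion, and no test was made of these counts.

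**Figure D3:**
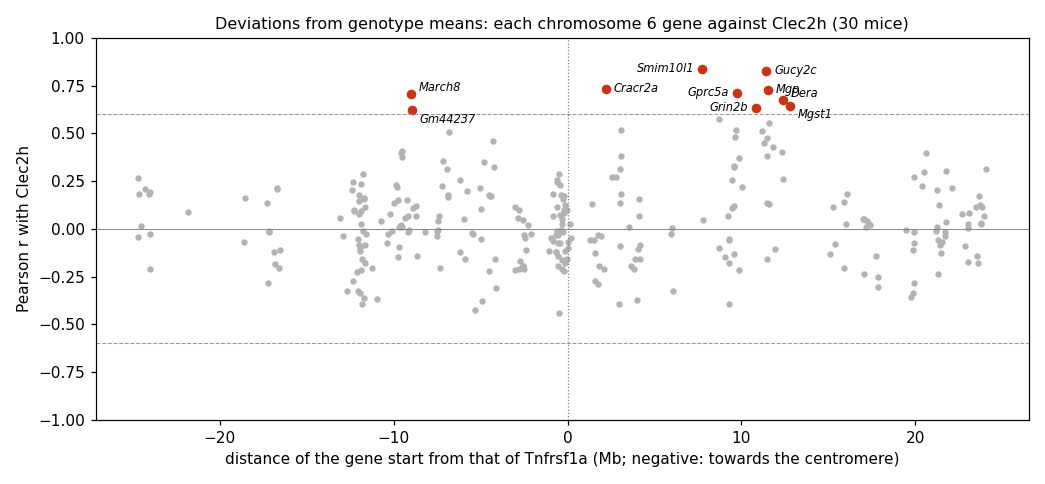
Pearson r (vertical axis) between the deviations from genotype means of Clec2h and of each tested chromosome 6 gene within 25 Mb of Tnfrsf1a, over 30 mice, by the distance of gene starts (horizontal axis, Mb). Red points reach 0.6, the dashed line, and 8 of the 10 named genes lie on the telomere side of Tnfrsf1a.

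Among the 4 genes the deviations of BC064078 and Clec2h ran against each other, with r = −0.71 and rho = −0.54 over 30 mice and the same sign in 5 of 6 genotypes. Without the 2 mice of most extreme Clec2h it was r = −0.63. The other 5 pairs had r of −0.33 to 0.49. The genes were chosen together and BC064078 held 0 to 7 reads in 15 of these libraries, so no p is given.

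The tissue state was measured by the mean log2 CPM of lists of genes. The list of interferon gamma response and antigen presentation genes scored 4.73 ± 0.677 in the Xbp1 knockout, 4.44 ± 0.442 in the Casp8 knockout and 6.19 ± 1.02 in the double mutant. Its mean was 5.07 ± 0.891 in the TNFR1 triple mutant, 4.77 ± 0.814 in the MLKL triple mutant and 3.93 ± 0.341 in WT (SD, n = 5 each). BC064078 averaged 16.8 CPM in the TNFR1 triple mutant, 0.661 CPM in the MLKL triple mutant and 0.662 CPM in the double mutant, and Clec2j averaged 3.59 CPM in the TNFR1 triple mutant, 0.648 CPM in the MLKL triple mutant and 0.338 CPM in the double mutant. Clec2h averaged 130 CPM in the TNFR1 triple mutant, 282 CPM in the MLKL triple mutant and 278 CPM in the double mutant, and Rhno1 averaged 6.26 CPM, 14.7 CPM and 14.9 CPM in these genotypes. The part of tissue state in these levels was not tested. The list of inflammatory cytokine and antimicrobial genes scored 4.68 ± 0.639 in the double mutant, 2.80 ± 1.05 in the Casp8 knockout and 2.31 ± 0.278 in the MLKL triple mutant, where Clec2h averaged 278, 260 and 282 CPM, against 2.15 ± 0.350 in WT, where it averaged 148 CPM. That list scored 2.87 ± 0.892 in the TNFR1 triple mutant and 2.36 ± 0.347 in the Xbp1 knockout, where Clec2h averaged 130 and 199 CPM.

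Within genotypes 12 relations between a gene and a score were computed over 30 mice, and they are described without p-values. For BC064078 and the interferon gamma score r was 0.55 and rho 0.61, with the same sign in 6 of 6 genotypes. It was r = 0.49 without the 2 mice farthest from the median score and r = 0.49 with deviations taken within each sex of a genotype. With 0 to 7 reads in 15 libraries, many of these deviations are of counts near 0. Clec2h and a score of absorptive colonocyte genes had r = 0.61 and rho = 0.46, with the same sign in 5 of 6 genotypes. It was r = 0.54 without the 2 farthest mice and r = 0.61 within sex. Of the mice low for Gprc5a and Mgp, Xbp1 knockout replicate 5, WT replicate 2 and TNFR1 triple mutant replicate 4 had the lowest colonocyte score of their genotypes (6.85, 6.78 and 7.02). WT replicate 5 and TNFR1 triple mutant replicate 1 had the highest of theirs (7.11 and 7.32). The part of tissue state in these mice was not tested. The other 10 relations had r of −0.41 to 0.32. Rhno1 and the interferon gamma score had r = −0.39, and r = −0.60 within sex.

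**Figure D4:**
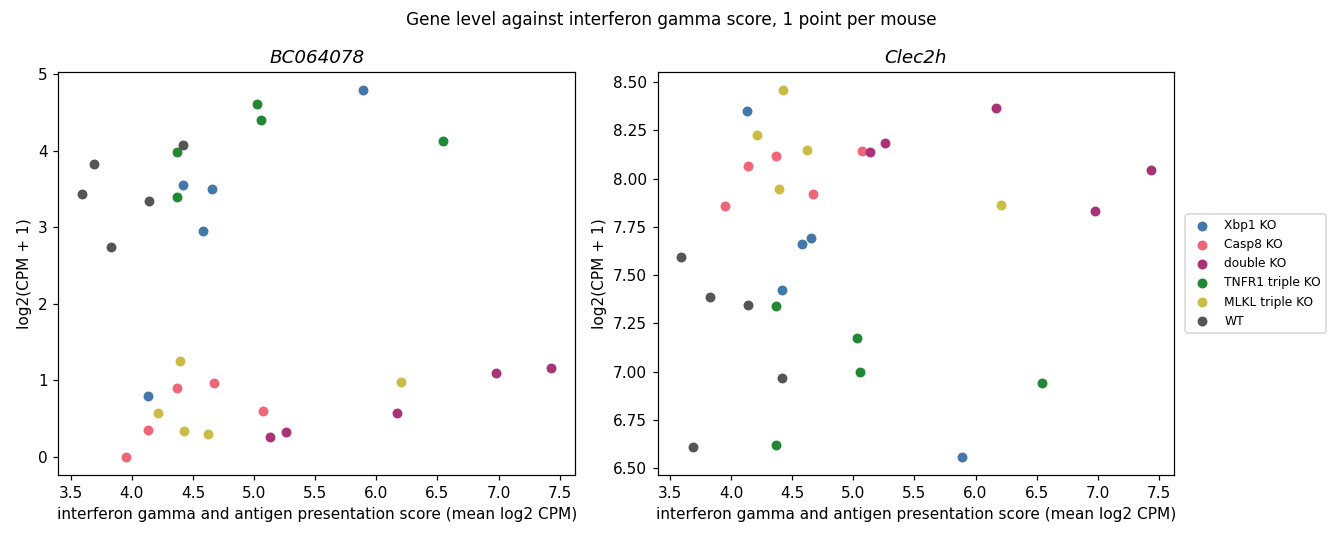
Level of BC064078 and Clec2h (vertical axes, log2 of CPM + 1) against the interferon gamma and antigen presentation score (horizontal axis, mean log2 CPM), 1 point per mouse, coloured by genotype. Double mutant mice lie at scores of 5.13 to 7.43 with the same low BC064078 as the Casp8 knockout at 3.95 to 5.07, and the TNFR1 triple mutant holds higher BC064078 at 4.37 to 6.55.

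Other genes of the lectin family and its receptors were mostly too low to test. Of 9 listed Clec2 genes, with Clec2h and Clec2j among them, the only others tested were Clec2d, which encodes the NKR-P1B ligand Clr-b, and Clec2i, which encodes Clr-g. Neither passed edgeR's test in any of the 10 comparisons, including the double mutant against the Xbp1 knockout (8.64% of all genes passed), the double mutant against the Casp8 knockout (18.4%) and the MLKL triple against the double mutant (7.65%). Their largest values against WT were 2.82 ± 0.804 for Clec2i in the MLKL triple mutant (adjusted p = 0.0834, edgeR) and 0.99 ± 0.290 for Clec2d in the Casp8 knockout (adjusted p = 0.0788, edgeR). Against WT, 1 of the 2 had an unadjusted p under 0.05 in each of the 5 genotypes, and limma voom called Clec2d in the Casp8 knockout and Clec2i in the other 4, all higher. DESeq2 made the same calls except in the Xbp1 knockout, so the result for these genes rests on the tool. Clec2i was at 0.259 to 3.14 CPM in the MLKL triple mutant and at 0 to 0.657 CPM in WT. Of 39 listed receptors of the complex and nearby lectin genes 6 were tested. The NKR-P1 genes Klrb1a, Klrb1b, Klrb1c and Klrb1f stayed at or below 3.18 CPM in every mouse. Of the 6 tested, 3 rose in the double mutant against WT (11.1% of all genes rose), Clec4n (1.81 ± 0.307), Clec4a2 (1.75 ± 0.319) and Clec7a (1.89 ± 0.388), all known from myeloid cells, with adjusted p of 1.22e-04, 2.31e-04 and 8.18e-04 (edgeR). The same genes fell in the MLKL triple against the double mutant (4.21% of all genes fell), Clec7a by 1.89 ± 0.388 on the log2 scale (adjusted p = 0.00281, edgeR). Of 16 markers of monocytes and macrophages 12 rose in the double mutant against WT and 5 fell in the MLKL triple mutant against the double mutant. BC064078 and Clec2j overlapped between the MLKL triple and the double mutant.

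For Rhno1, 24 genes of the ATR checkpoint or otherwise linked to Rhno1 were listed and 23 tested. The list reaches beyond partners of RHNO1, with Foxm1, Polq and Ddx11 among its genes. In the double mutant 2 rose and 2 fell against WT, where 21.3% of all genes passed, 4 rose and 1 fell against the Xbp1 knockout (8.64%), and 4 rose and 2 fell against the Casp8 knockout (18.4%). Against WT, where the 4 of 23 are no larger a share than that of all genes, Rad9a, a subunit of the clamp that RHNO1 binds, rose (0.42 ± 0.103, adjusted p = 0.00356, edgeR), as did Rpa1, a subunit of the protein that coats single-stranded DNA (0.35 ± 0.124, adjusted p = 0.0388, edgeR). Those that fell were Etaa1, an activator of ATR known from human cells (−0.48 ± 0.173, adjusted p = 0.0438, edgeR), and Rad9b, a paralogue of Rad9a (−0.27 ± 0.0981, adjusted p = 0.0497, edgeR), named after their values were seen. The median over the list was 0.18, against 0.01 over all tested genes. In the TNFR1 triple mutant against the double mutant, where Rhno1 was 2.38-fold lower and 2.35% of all genes passed, 0 of 23 passed by edgeR, DESeq2 or limma voom and 2 had an unadjusted p under 0.05, with a list median of −0.12. In the Casp8 knockout against WT, where Rhno1 was 1.44-fold higher and 1.17% of all genes passed, 0 of 23 passed by any of these tools and 2 had an unadjusted p under 0.05, with a list median of 0.03. At shares this small, 0 of 23 says little about the list.

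Sex was unevenly spread over the genotypes. With sex as a term in the fit, the log2 fold change in the TNFR1 triple mutant against the double mutant was 4.54 for BC064078, 3.60 for Clec2j, −0.99 for Clec2h and −1.38 for Rhno1. In the Casp8 knockout against WT it was −4.39 for BC064078, −2.40 for Clec2j, 0.88 for Clec2h and 0.45 for Rhno1. Each kept the sign it had without that term. Over the alternatives tried, the log2 fold change of BC064078 in the Casp8 knockout against WT stayed between −4.64 and −3.98, that of Clec2h between 0.69 and 0.92, that of Clec2j between −2.94 and −2.18 and that of Rhno1 between 0.45 and 0.65.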

How the data were processed

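The authors deposited 1 table of estimated counts, with a row for each Ensembl gene, in which 11.2% of non-zero values were not whole. Per the labels' protocols, libraries were made from 2 µg of total RNA per mouse with the Lexogen QuantSeq 3′ forward kit. The submitters' processing notes name featureCounts 2.01, Subread, cutadapt 3.2 and R 4.0.0, and as genome build GRCm38 or mm10. How strand and reads shared by genes were handled, and the annotation release, are not stated there. Molecular identifiers are not named, so reads may hold PCR copies.

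Of 55579 rows, 92 spike-in rows with 0 reads were left out, and 55141 of 55487 gene identifiers matched GENCODE M21, the others holding 0.0190% of reads. Counts were rounded (shifting a library's total by at most 0.00321%), filtered with filterByExpr (15458 genes left) and fitted in 1 model with a coefficient per genotype (R 4.3.3, edgeR 4.0.16, TMM, quasi-likelihood F test). Benjamini-Hochberg adjustment ran over all tested genes within each of 10 comparisons, at 0.05. CPM are scaled by TMM, log2 CPM used a prior count of 2, and profile likeness and scores used log2 CPM. Sex was called from the expression of Xist and Y-linked genes. The procedure was tested on simulated data. As alternatives, the fit was repeated with size factors of DESeq2, without or with a stricter low-count filter, sex or replicate number as a term, only the groups compared, limma 3.58.1 voom with quality weights, DESeq2 1.42.0, windows of 10 and 5 Mb, and each library left out in turn.

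The 4 genes and the gene lists were chosen with earlier results of these data known. Genes were named by rule: the 4 genes, the targeted genes, 3 tested neighbours on either side, up to 5 window genes of smallest p in each direction per comparison, the nearest profiles, and up to 4 genes of each family list; Mgp and the genes named for deviating with Clec2h were added after their values were seen. Per the labels' protocols RNA came from single mice, so replicates are mice; their counts varied at least 3.04 times more than sampling alone would give. Replicate numbers did not pair the mice (correlations of same-numbered mice −0.182 to 0.236, in no comparison over 0.1 in all 5 pairs). Correlations of deviations from genotype means are given without p-values. Sequences were read from GENCODE M21 transcripts and RefSeq promoter windows (1 of the 4 genes, Clec2h, had an entry).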

Additional observations from a re-analysis of the deposited data

Results flagged for a closer look

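Of 60 sets of 5 mice examined (10 genes in 6 genotypes), 2 held a mouse far from the others of its genotype. Chance gives about 1 in 20 such sets, so these 2 are no more than chance would give. Rhno1 was lowest in Xbp1 knockout replicate 5, at 5.47 CPM against 7.97 to 8.77 CPM in the other 4 mice. That mouse also had the lowest Clec2h, Gprc5a and Mgp and the highest BC064078 of its genotype. Its interferon gamma score was 5.89 against 4.13 to 4.66 in the others, and its absorptive colonocyte score 6.85 against 7.15 to 7.39. Cracr2a was highest in TNFR1 triple mutant replicate 5, at 10.4 CPM against 0.727 to 2.65 CPM in the other 4 mice. That mouse also held the lowest BC064078 (9.47 CPM) and Clec2j (1.80 CPM) and the highest Rhno1 and Clec2h of its genotype. Whether anything but chance set these mice apart was not tested.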

How the results depend on the processing

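The counts of window genes other than the 4 that passed depended on the setting as follows. With the window at 10 Mb there were 5 in the Casp8 knockout against WT, 44 in the double mutant against WT, 4 in the MLKL triple mutant against WT, 13 and 34 in the double mutant against the Xbp1 and the Casp8 knockout, and 12 in the TNFR1 triple mutant against the double mutant. At 5 Mb these counts were 0, 28, 1, 8, 24 and 6, with 15 in the MLKL triple mutant against the double mutant and 3 between the triple mutants; fewer genes are tested in narrower windows. Fitting only the groups compared gave 2 and 16 in the Xbp1 and Casp8 knockouts against WT, 4 in the TNFR1 and 10 in the MLKL triple mutant against the double mutant, and 2 between the triple mutants. Limma voom gave 11, 18, 18 and 14 in the Xbp1, Casp8, TNFR1 triple and MLKL triple mutants against WT, and DESeq2 gave 1, 11 and 12 in the Xbp1, TNFR1 triple and MLKL triple mutants. With sex as a term there were 1 in the TNFR1 and 2 in the MLKL triple mutant against WT, and 10 in the TNFR1 triple against the double mutant. Without a low-count filter there were 12 in the MLKL triple mutant against WT and 10 between the triple mutants. The cause was not tested.

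With the replicate number as a block there was 1 gene in the Xbp1 knockout against WT, where the fit without it had 0; the block moved no other count by over 1.5 times, and the numbers are not known to pair mice. Leaving out each replicate in turn gave 0 to 1, 3 to 10, 62 to 80, 0 to 9 and 0 to 8 in the Xbp1, Casp8, double, TNFR1 triple and MLKL triple mutants against WT. It gave 15 to 32 and 42 to 59 in the double mutant against the Xbp1 and the Casp8 knockout, 8 to 31 and 12 to 29 in the TNFR1 and the MLKL triple against the double mutant, and 1 to 7 between the triple mutants. Counts fell by over 1.5 times without the following mice. In the Casp8 knockout against WT there were 4 without its replicate 3 or 4 or WT replicate 5, and 3 without WT replicate 2. In the TNFR1 triple mutant against WT leaving out its replicate 1 or 4 gave 0 or 2, and WT replicate 1, 2 or 4 gave 1, 2 or 3. In the MLKL triple mutant against WT leaving out its replicate 2, 3 or 4 gave 1, 0 or 2, and WT replicate 1, 2, 4 or 5 gave 4, 1, 2 or 2. In the TNFR1 triple against the double mutant there were 8 and 10 without TNFR1 triple replicates 2 and 4, and 10 and 9 without double replicates 1 and 4. Between the triple mutants there were 3, 2 and 1 without TNFR1 triple replicates 1, 2 and 4, and 1 without MLKL triple replicate 3 or 4. In the double mutant against the Xbp1 knockout there were 15 without Xbp1 replicate 4 or double replicate 1 and 16 without double replicate 4. In the MLKL triple against the double mutant there were 15 without MLKL triple replicate 2 or 4 and 12 without double replicate 4. In the Xbp1 knockout against WT there was 1 without its replicate 3 or 5.

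The relations to scores are given without a test. That of Clec2h to the colonocyte score was 0.54 without the 2 farthest mice, and that of BC064078 to the interferon gamma score was 0.49 there. That of Rhno1 to the interferon gamma score was −0.60 within sex. Signs turned for Rhno1 and the inflammatory score (0.080 without the 2 mice) and for Clec2j and the interferon gamma score (−0.037 without the 2 mice, −0.088 within sex). Depth limits BC064078 and Clec2j, at 0 to 7 reads in 15 libraries.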
